A study of Rattus norvegicus with 12 samples.

Results

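Ribosome biogenesis is the production of ribosomes in the nucleolus. RNA polymerase I transcribes the ribosomal RNA precursor, small nucleolar ribonucleoproteins (snoRNPs) modify it, and assembly factors fold, cut and package it into the 40S and 60S subunits. Growing cells raise this pathway, and angiotensin II (Ang II), the pressor peptide of the renin-angiotensin system, is a growth signal for vascular smooth muscle. The set followed here has 58 listed genes of rRNA transcription, rRNA processing and subunit assembly. They were taken by gene symbol, and where a gene had several probe sets the brightest over the 12 arrays stood for it. In all, 52 of the 58 have a probe set with a single symbol, among 14506 genes tested. Rrp12, Utp20, Nop2, Pes1 and Rrp1b have none and were not analysed here, and Rrn3 has only a probe set that carries several symbols.

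The cells were vascular smooth muscle, labelled differentiated, taken from Sprague-Dawley rat aortas, grown in 10% serum and then kept without serum for 48 h, which all 4 groups share. Of the 12 arrays (Affymetrix Rat Gene 1.0 ST, whole-transcript probes), 3 are of untreated cells, 3 of cells given 100 nM Ang II for 6 h, 3 of cells given it for 12 h and 3 of cells given it for 24 h. The titles and the design text give these times, whereas the treatment protocol names 1, 3 and 24 h. The replicates are called biological, but no label ties them to separate animals or cultures, and the spread behind each p-value may therefore be technical. Untreated cells of matched later age were not analysed here, so Ang II and time in culture cannot be told apart. Values are the deposited log2 intensities, on which a difference of 1 is 2-fold, and the level of 1 gene is not set against that of another. A gene passed when its limma p, adjusted over all 14506 genes by the Benjamini-Hochberg method, was under 0.05, and every SE is that of a log2 difference with 3 arrays per group.

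The array medians were 7.22 to 7.32, and correlations across genes were 0.9975 to 0.9984 within groups. In the 24 h arrays the median over all genes lay 0.02 to 0.06 above the untreated mean. Of 10 smooth muscle markers 9 were measured, at mean log2 values of 9.72 to 14.4. The 9 endothelial and 8 leukocyte markers measured had mean values of 5.13 to 7.9 and 5.28 to 6.76. The 6 fibroblast markers measured had mean values of 6.25 to 11.32. The mean over the smooth muscle markers was 12.48 to 12.5 at 24 h and 12.06 to 12.09 in untreated cells. Of these 9 markers, 8 were higher at 24 h (15.3% of all genes). The mean over the 6 fibroblast markers was 8.79 to 8.84 in untreated cells. It was 8.36 to 8.42 at 6 h, 8.35 to 8.41 at 12 h and 8.36 to 8.39 at 24 h. Of these 6 markers, 4 were lower at 6 h (17.2% of all genes), 4 at 12 h (13.3%) and 3 at 24 h (14.7%). Pdgfra fell most at 6 h (-1.39 ± 0.06), while Pi16 (0.03) and Tcf21 (-0.06) did not pass. The part of these shifts in the results below was not tested. In such bulk RNA, fewer cells of a type and less RNA per cell cannot be told apart.

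Some of these genes carry the canonical E-box, the hexamer CACGTG bound by MYC and other basic helix-loop-helix factors, near their start. RefSeq promoters (rat build GRCr8, 250 bases before to 50 after the start) were matched for 46 of the 52 genes. Bop1, Dcaf13, Ddx52, Gnl2, Rrs1 and Wdr43 had none in the table. The hexamer, which reads the same on both strands, occurred in the window of 13 of the 46 genes (28.3%), and of 8.06% of all 11951 tested genes with a promoter. Within 100 bases of the start it occurred in 11 genes (23.9%), and in 4.83% of all tested genes. The sites of 4 genes whose changes stand out below are shown with 12 bases on each side, 5′ to 3′ on the gene's strand, with the hexamer in capitals. Noc3l had the largest rise at 6 h and Gnl3 the largest loss at 12 h after Taf1d. Utp18 passed against untreated cells at 24 h alone, and Wdr75 ran opposite to most others.
Noc3l, chr1:245997673-245997702, minus strand, beginning at base 19 after the start: ttgagctctgggCACGTGtgtgtttcctac
Gnl3, chr16:6219790-6219819, minus strand, 25 bases before the start: agttccagttcgCACGTGgcgcccgagacg
Utp18, chr10:79335830-79335859, minus strand, 90 bases before the start: gtgagtgtcggtCACGTGgttcgaggcagc
Utp18, chr10:79335737-79335766, minus strand, beginning at base 4 after the start: gcagtggggctcCACGTGaacgtctgcgtt
Wdr75, chr9:55395060-55395089, plus strand, 160 bases before the start: tcactctttctaCACGTGttttaatttgac

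The 250 bases before the start are given in full for Gnl3 and Wdr75, because the course of Wdr75 was the reverse of the common one. That of Gnl3 is 68.4% G and C and has the hexamer close to the start. That of Wdr75 is 50.8% G and C and has it 160 bases before the start. Both genes were chosen with their courses known, and a relation between these features and the courses was not tested.
Gnl3, chr16:6219783-6220032, minus strand: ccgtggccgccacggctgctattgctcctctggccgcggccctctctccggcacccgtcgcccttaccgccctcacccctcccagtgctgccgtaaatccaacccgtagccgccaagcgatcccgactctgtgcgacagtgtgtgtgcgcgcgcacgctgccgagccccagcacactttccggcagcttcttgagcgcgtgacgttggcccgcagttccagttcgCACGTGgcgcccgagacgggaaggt
Wdr75, chr9:55394982-55395231, plus strand: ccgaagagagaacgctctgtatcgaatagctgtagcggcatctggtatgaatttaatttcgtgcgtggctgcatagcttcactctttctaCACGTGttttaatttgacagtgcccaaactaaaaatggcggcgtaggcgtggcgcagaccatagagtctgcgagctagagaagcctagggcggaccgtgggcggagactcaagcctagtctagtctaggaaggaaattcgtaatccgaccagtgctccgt

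Genes that were higher and genes that were lower at 6 h were found both with and without the hexamer. The median log2 difference between 6 h and untreated cells was 0.14 over the 13 genes with it and 0.24 over the 33 matched genes without it. At 6 h, 7 of the 13 genes with the hexamer were higher and 1 lower, and 20 of the 33 without it were higher and 4 lower.

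As a set the genes were high at 6 h and low at 12 and 24 h. The mean of 43 of the 52 genes was highest at 6 h, which was so in 24.7% of all genes tested. The lowest mean was at 24 h in 32 genes, against 20.1% of all genes, and at 12 h in 18 genes, against 22.5%. Among the 4 groups 48 of the 52 genes differed (limma F test, adjusted p under 0.05), as did 51.5% of all genes. The 4 that did not pass were Dkc1, Ltv1, Dcaf13 and Nop16. In each 6 h array the median gene of the set lay 0.18 to 0.24 above its untreated mean. In the 12 h arrays it lay between -0.18 and -0.12, and in the 24 h arrays between -0.24 and -0.16.

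**Figure D1:**
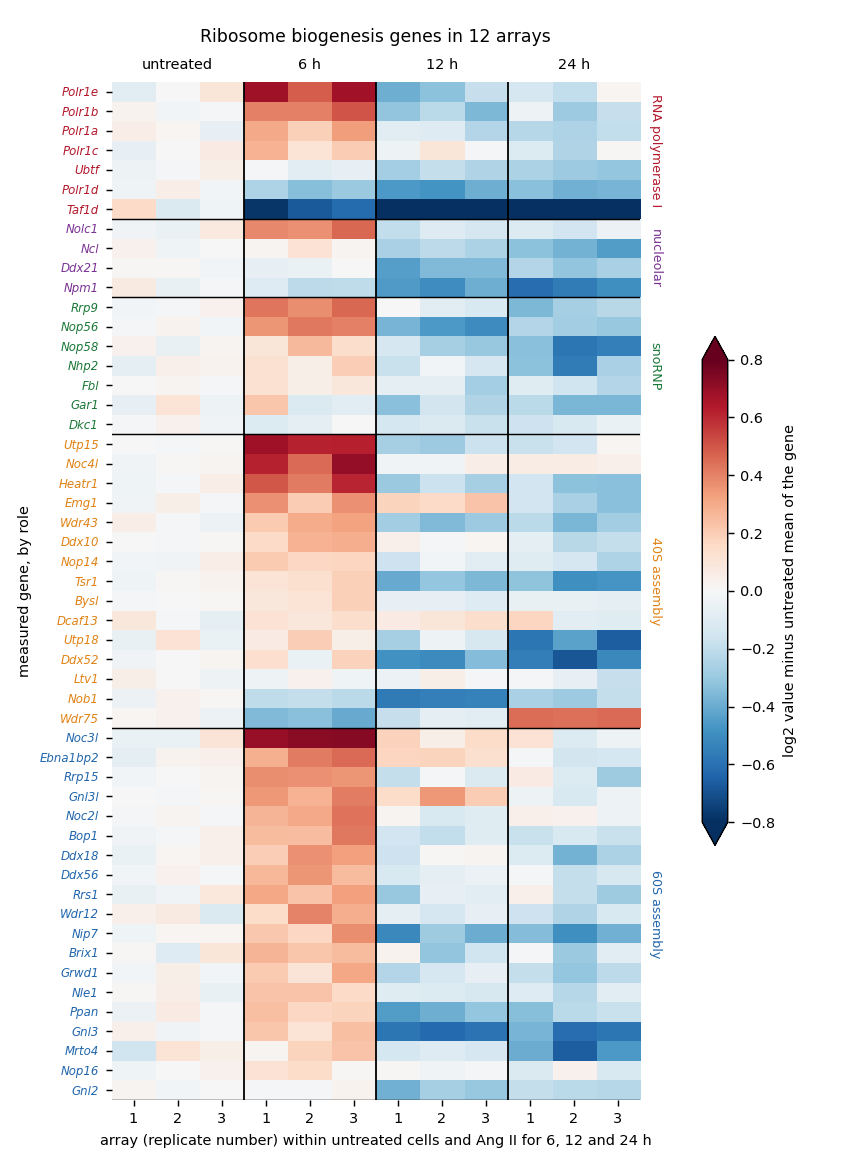
Log2 value minus the gene's untreated mean for each of the 52 measured genes (rows, by role and then by the 6 h difference) in each of the 12 arrays (columns, replicate numbers within untreated cells and Ang II for 6, 12 and 24 h). The colour scale ends at 0.8 in both directions. The 6 h columns are mostly red and the 12 h and 24 h columns mostly blue, and Wdr75 and Taf1d stand out from that pattern.

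At 6 h, 30 of the 52 genes were higher than in untreated cells (18.6% of all genes) and 5 were lower (17.2% of all genes) by limma at an adjusted p under 0.05. Their median log2 difference was 0.20, against 0.01 over all genes. Together that is 35 of 52, against 35.8% of all genes. The 3 arrays at 6 h lay wholly above the 3 untreated ones in 35 genes (24.8% of all genes) and wholly below them in 5 (22.4% of all genes). At 12 h, 2 genes were higher (13.3% of all genes) and 21 lower (13.3% of all genes), with a median of -0.14, against 0.005 over all genes. In either direction that is 23 of 52, against 26.6% of all genes. The 12 h arrays lay wholly above the untreated ones in 3 genes (20.3% of all genes) and wholly below them in 32 (20.4% of all genes). The 2 higher genes were Gnl3l and Emg1, and Emg1 did not pass (0.17 to 0.20) when untreated replicate 1 or 3 or any 1 of the 12 h arrays was left out. At 24 h, 1 gene was higher (15.3% of all genes) and 29 were lower (14.7% of all genes), with a median of -0.19, against 0.05 over all genes. In either direction that is 30 of 52, against 30% of all genes. The set's median at 24 h was -0.14 when each array was centred on its median. The 24 h arrays lay wholly above the untreated ones in 2 genes (25.4% of all genes) and wholly below them in 36 (19.4% of all genes). These comparisons share the untreated arrays.

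The change between the times does not use the untreated arrays. Between 6 and 12 h, 43 of the 52 genes were lower at 12 h (13.9% of all genes) and 1 was higher (13.1% of all genes), with a median of -0.35, against -0.0002 over all genes. In either direction that is 44 of 52, against 27% of all genes. The 12 h arrays lay wholly above those of 6 h in 1 gene (19.1% of all genes) and wholly below them in 47 (20.2% of all genes). The largest drops were those of Polr1e (-0.91), Utp15 (-0.88), Nop56 (-0.84), Gnl3 (-0.79) and Heatr1 (-0.75). Between 12 and 24 h the set moved little: 10 genes were lower at 24 h (13.5% of all genes) and 3 higher (14% of all genes), 13 in all, against 27.5% of all genes. The largest falls among the 10 were those of Emg1 (-0.44), Utp18 (-0.41), Mrto4 (-0.38), Gnl3l (-0.30) and Nhp2 (-0.27). That of Nhp2 did not pass when only those 2 groups were fitted (adjusted p = 0.0685). The 24 h arrays lay wholly above those of 12 h in 6 genes (22.2% of all genes) and wholly below them in 11 (18% of all genes). The median there was -0.03, against 0.04 over all genes. It turned to 0.01, with 10 higher genes, when each array was centred on its median. The small counts also moved with single arrays, to 6 lower genes without 24 h replicate 2 and to 5 higher genes without 24 h replicate 1. For the other 39 genes no difference between 12 and 24 h was detectable at this precision, the median SE of a difference being 0.06.

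**Figure D2:**
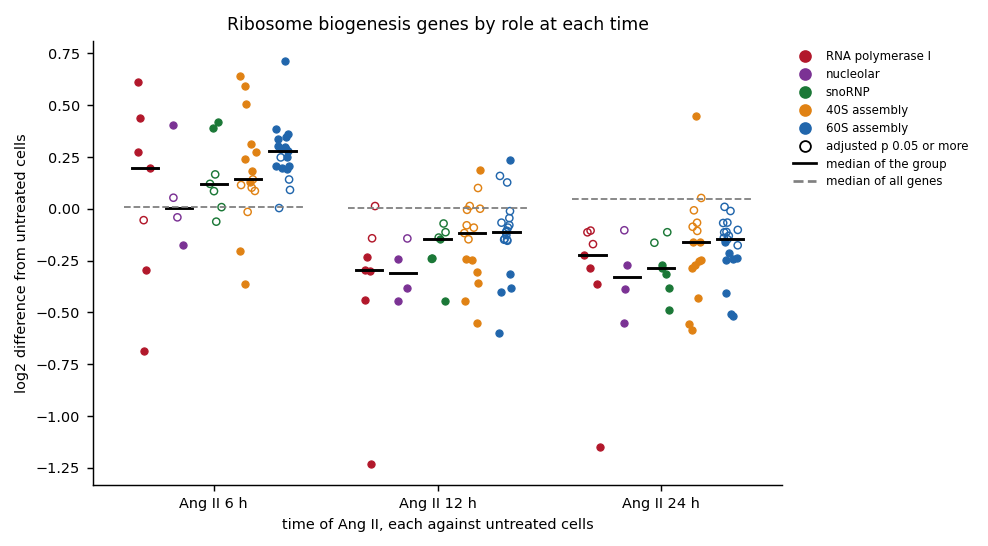
Log2 difference from untreated cells (vertical axis) of each measured gene at 6, 12 and 24 h of Ang II, coloured by role. Filled points have a limma adjusted p under 0.05, black bars are medians of the role groups, and dashed lines are medians of all genes tested. At 6 h the 60S assembly factors have the highest median, 0.28, and at 12 and 24 h the medians of all 5 role groups are below 0.

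The counts by role below stand beside the shares of all genes that were higher and lower, 18.6% and 17.2% at 6 h, 13.3% and 13.3% at 12 h, and 15.3% and 14.7% at 24 h.

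RNA polymerase I subunits divided at 6 h. Of 7 measured genes of the enzyme and its factors, 4 rose and 2 fell at 6 h, while 5 fell at 12 h and 4 at 24 h, the others not passing. Polr1e, a subunit found only in this polymerase, had log2 values of 8.19, 8.28 and 8.37 in untreated cells, 8.95, 8.76 and 8.95 at 6 h, 7.89, 7.95 and 8.10 at 12 h, and 8.14, 8.08 and 8.30 at 24 h. The 6 h arrays were all above the untreated ones and the 12 h arrays all below them, while those of 24 h overlapped with the untreated arrays. Polr1e was thus 1.53-fold higher at 6 h than in untreated cells (log2 difference 0.61 ± 0.08, SE, 3 arrays per group, adjusted p = 6.89e-05) and lower by 0.30 ± 0.08 at 12 h. The 12 h difference did not pass without untreated replicate 3 (-0.25, adjusted p = 0.0654) or without 12 h replicate 1 (-0.26, adjusted p = 0.0603). The drop of Polr1e between 6 and 12 h, -0.91 ± 0.08, was the largest of the set.

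Polr1b, the second-largest subunit of the enzyme, had values of 8.50, 8.45 and 8.47 in untreated cells, 8.88, 8.88 and 8.98 at 6 h, 8.16, 8.26 and 8.12 at 12 h, and 8.43, 8.18 and 8.29 at 24 h. It rose at 6 h (0.44 ± 0.06, adjusted p = 0.000167) and was lower at 12 h (-0.30 ± 0.06, adjusted p = 0.00421), and at 24 h its difference of -0.17 did not pass. Polr1a, the largest subunit and part of the catalytic centre, had values of 8.19, 8.16 and 8.07 in untreated cells, 8.44, 8.33 and 8.47 at 6 h, 8.05, 8.04 and 7.91 at 12 h, and 7.91, 7.89 and 7.94 at 24 h. It rose by 0.28 ± 0.05 at 6 h and was lower by 0.22 ± 0.05 at 24 h. Both catalytic subunit genes had their 6 h arrays above all others.

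Polr1c and Polr1d encode the subunits that RNA polymerase I shares with RNA polymerase III, and they went different ways. Polr1c had values of 9.10, 9.17 and 9.24 in untreated cells, 9.45, 9.28 and 9.38 at 6 h, 9.13, 9.27 and 9.16 at 12 h, and 9.06, 8.93 and 9.18 at 24 h. Its rise at 6 h was small (0.20 ± 0.07, adjusted p = 0.0457) and did not pass with the replicate number as a block (adjusted p = 0.0581), nor without untreated replicate 1 or 2 or 6 h replicate 1 or 3 (0.16 to 0.20). Polr1d had values of 10.32, 10.41 and 10.34 in untreated cells, 10.11, 10.02 and 10.06 at 6 h, 9.90, 9.88 and 9.97 at 12 h, and 10.02, 9.97 and 9.98 at 24 h. All 9 Ang II arrays lay below the untreated ones, with differences of -0.29 ± 0.04 at 6 h, -0.44 ± 0.04 at 12 h and -0.36 ± 0.04 at 24 h.

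Among the listed factors that load the polymerase on the rRNA gene promoter, Taf1d and Ubtf were measured, and both were lower at 12 and 24 h. Taf1d, a subunit of the promoter selectivity factor SL1, had values of 10.41, 10.14 and 10.22 in untreated cells, 9.48, 9.58 and 9.64 at 6 h, 8.94, 8.96 and 9.16 at 12 h, and 8.96, 9.17 and 9.19 at 24 h. The groups did not overlap with the untreated arrays at any time, and Taf1d was 1.61-fold lower at 6 h, 2.35-fold lower at 12 h (log2 difference -1.23 ± 0.09, adjusted p = 7.65e-07) and 2.22-fold lower at 24 h. It was the largest change of the set in each of these comparisons except the 6 h one, where the rise of Noc3l was larger. Ubtf, which encodes the upstream binding factor that opens rRNA genes for transcription, had values of 10.10, 10.13 and 10.18 in untreated cells, 10.12, 10.05 and 10.07 at 6 h, 9.86, 9.94 and 9.90 at 12 h, and 9.88, 9.85 and 9.83 at 24 h. Its difference of -0.05 ± 0.04 at 6 h did not pass, while it was lower by 0.23 ± 0.04 at 12 h and by 0.28 ± 0.04 at 24 h. Other SL1 subunits, from the further pathway genes, differed from Taf1d in direction at 6 h. Taf1c was higher at 6 h (0.32 ± 0.05) and did not pass at 12 h (-0.11) or 24 h (0.10). Taf1a was higher at 6 h (0.24 ± 0.08), lower at 12 h (-0.30 ± 0.08) and did not pass at 24 h (-0.09).

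**Figure D3:**
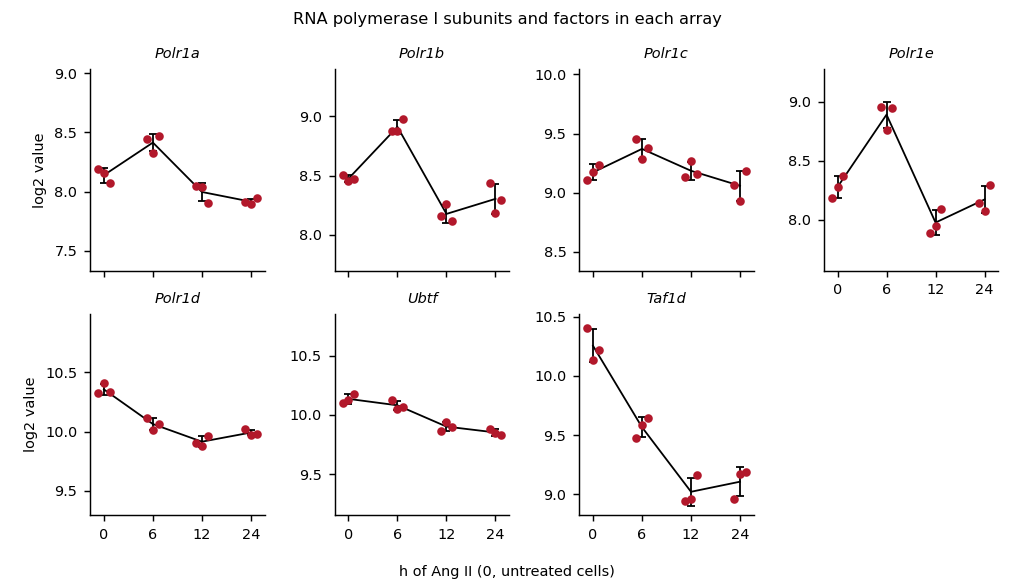
Log2 values of the 7 measured RNA polymerase I genes in each array (points) with group means and SD (black), against hours of Ang II, where 0 is untreated cells and the time axis is not to scale. Each panel spans 1.7 log2 units. Polr1a, Polr1b, Polr1c and Polr1e peak at 6 h, whereas Polr1d, Ubtf and Taf1d have their highest mean in untreated cells.

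The abundant proteins of the nucleolus had no common rise at 6 h: 1 of 4 rose and 1 fell, and 3 of 4 were lower at 12 h and again at 24 h. Ncl, the gene of nucleolin, had log2 values of 12.11, 12.04 and 12.08 in untreated cells, 12.10, 12.19 and 12.10 at 6 h, 11.82, 11.87 and 11.82 at 12 h, and 11.75, 11.70 and 11.63 at 24 h. The 6 h arrays overlapped with the untreated ones (0.05 ± 0.05), and the gene was lower at 12 h (-0.24 ± 0.05) and 24 h (-0.38 ± 0.05, adjusted p = 5.42e-05). Npm1, which encodes the histone and ribosome chaperone nucleophosmin, had values of 11.81, 11.68 and 11.74 in untreated cells, 11.64, 11.53 and 11.54 at 6 h, 11.29, 11.25 and 11.36 at 12 h, and 11.13, 11.19 and 11.25 at 24 h. It was lower by 0.44 ± 0.05 at 12 h and by 0.55 ± 0.05 at 24 h (adjusted p = 9.1e-06). Its small fall at 6 h (-0.17 ± 0.05, adjusted p = 0.0214) did not pass under median centring (adjusted p = 0.0636) or with the mean of its 4 probe sets (adjusted p = 0.0623), nor without untreated replicate 1 or 3 or 6 h replicate 2 or 3 (-0.18 to -0.14). At 24 h all 4 probe sets of Npm1 were lower, by 0.55 to 0.65.

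Ddx21, an RNA helicase of the nucleolus that acts in rRNA transcription and processing, had values of 11.21, 11.21 and 11.18 in untreated cells, 11.13, 11.14 and 11.19 at 6 h, 10.76, 10.85 and 10.84 at 12 h, and 10.96, 10.88 and 10.94 at 24 h. It was lower at 12 h (-0.38 ± 0.04) and at 24 h (-0.27 ± 0.04), and its 6 h arrays overlapped with the untreated ones. Nolc1, a chaperone that shuttles snoRNPs, was the member of this group that rose: its values were 9.77, 9.74 and 9.88 in untreated cells, 10.18, 10.16 and 10.26 at 6 h, 9.60, 9.69 and 9.66 at 12 h, and 9.69, 9.64 and 9.75 at 24 h. The difference at 6 h was 0.40 ± 0.05 (adjusted p = 5.2e-05), and those at 12 and 24 h did not pass.

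Among the 7 snoRNP protein genes, 2 rose at 6 h, 3 fell at 12 h and 5 fell at 24 h, the others not passing. Nop56, a core protein of the box C/D snoRNPs that guide rRNA methylation, had values of 10.93, 10.96 and 10.92 in untreated cells, 11.29, 11.36 and 11.34 at 6 h, 10.56, 10.48 and 10.43 at 12 h, and 10.70, 10.66 and 10.63 at 24 h. No group overlapped with any other, and the gene was 1.31-fold higher at 6 h (0.39 ± 0.04, adjusted p = 2.27e-05) and 1.36-fold lower at 12 h (-0.44 ± 0.04, adjusted p = 1.46e-05). Between 12 and 24 h Nop56 was higher again, by 0.17 ± 0.04, which did not pass when only those 2 groups were fitted (adjusted p = 0.0655) or without 12 h replicate 3 (0.14, adjusted p = 0.0596). Its partner in the same particles, Nop58, had a difference of 0.17 ± 0.07 at 6 h that did not pass and was lower at 12 h (-0.24 ± 0.07) and 24 h (-0.49 ± 0.07). Rrp9, the protein specific to the U3 snoRNP that starts precursor cleavage, rose at 6 h (0.42 ± 0.05) and was lower at 24 h (-0.29 ± 0.05). Fbl, the methyltransferase fibrillarin of box C/D particles, passed in none of the comparisons with untreated cells (0.09, -0.14 and -0.16 at 6, 12 and 24 h), while its drop of 0.22 between 6 and 12 h passed.

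The box H/ACA proteins are parts of the snoRNPs that guide conversion of uridine to pseudouridine. No rise of their genes passed at 6 h, with differences of 0.12 for Nhp2, 0.01 for Gar1 and -0.06 for the pseudouridine synthase gene Dkc1. At 24 h Nhp2 (-0.38 ± 0.08) and Gar1 (-0.32 ± 0.09) were lower. Dkc1 differed least, with -0.14 ± 0.05 at 12 h as its only passing difference.

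The small subunit processome assembles on the new precursor, and other factors act later on the 40S subunit. Of the 15 measured genes of 40S assembly, early and late together, 8 rose at 6 h and 2 fell. At 12 h 1 was higher and 6 lower, and at 24 h 1 was higher and 9 lower. The UtpA subcomplex binds the precursor earliest and is tied to its transcription, and its genes did not move together. Utp15 had values of 8.47, 8.46 and 8.48 in untreated cells, 9.15, 9.09 and 9.10 at 6 h, 8.20, 8.18 and 8.30 at 12 h, and 8.29, 8.32 and 8.49 at 24 h. Its 6 h arrays lay far above all others, a 1.56-fold rise (0.64 ± 0.06, adjusted p = 2.25e-06), and its 12 h arrays lay below the untreated ones (-0.24 ± 0.06). Heatr1, the scaffold of that subcomplex (Utp10 in yeast), had values of 8.53, 8.54 and 8.61 in untreated cells, 9.06, 8.97 and 9.17 at 6 h, 8.26, 8.39 and 8.30 at 12 h, and 8.41, 8.23 and 8.23 at 24 h. It rose by 0.51 ± 0.06 at 6 h and was lower by 0.25 ± 0.06 at 12 h and 0.27 ± 0.06 at 24 h. The 12 h difference of Heatr1 did not pass without untreated replicate 3 (-0.22, adjusted p = 0.0591) or without 12 h replicate 1 (-0.22, adjusted p = 0.0553). Wdr43 (Utp5 in yeast) likewise was higher by 0.28 ± 0.05 at 6 h and lower at 12 h (-0.31 ± 0.05) and 24 h (-0.29 ± 0.05).

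Wdr75 (Utp17 in yeast), of the same subcomplex, did the reverse. Its values were 11.00, 11.02 and 10.94 in untreated cells, 10.63, 10.65 and 10.58 at 6 h, 10.80, 10.91 and 10.90 at 12 h, and 11.44, 11.43 and 11.44 at 24 h. No group overlapped with any other: the 6 h arrays were lowest and the 24 h arrays highest. Wdr75 was 1.29-fold lower at 6 h (-0.36 ± 0.04, adjusted p = 3.36e-05) and 1.36-fold higher at 24 h (0.45 ± 0.04, adjusted p = 1.11e-05), the sole gene of the set above the untreated level by the test at that time. It was also the sole gene that rose between 6 and 12 h (0.25 ± 0.04), and it rose most between 12 and 24 h (0.56 ± 0.04).

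Noc4l and Nop14 encode partners in early 40S assembly and export, as established in yeast. Noc4l had values of 9.12, 9.15 and 9.16 in untreated cells, 9.76, 9.60 and 9.85 at 6 h, 9.12, 9.12 and 9.20 at 12 h, and 9.20, 9.20 and 9.18 at 24 h. It was 1.51-fold higher at 6 h (0.59 ± 0.06, adjusted p = 6.18e-06) and differed by 0.00 at 12 h and 0.05 at 24 h, neither of which passed. Nop14 rose less (0.18 ± 0.05) and was lower by 0.16 ± 0.05 at 24 h. Emg1, a methyltransferase of 18S rRNA, kept its rise longer, with values of 9.14, 9.21 and 9.15 in untreated cells, 9.53, 9.37 and 9.53 at 6 h, 9.35, 9.32 and 9.39 at 12 h, and 9.01, 8.91 and 8.83 at 24 h. It was higher at 6 h (0.31 ± 0.06) and at 12 h (0.19 ± 0.06, adjusted p = 0.0331) and lower at 24 h (-0.25 ± 0.06).

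Nob1, the endonuclease that makes the final cut of 18S rRNA, had values of 10.25, 10.33 and 10.30 in untreated cells, 10.09, 10.10 and 10.07 at 6 h, 9.72, 9.74 and 9.75 at 12 h, and 10.03, 10.00 and 10.10 at 24 h. It was below the untreated arrays at each time, with its lowest point at 12 h (-0.55 ± 0.04, adjusted p = 1.01e-06), and regained 0.30 ± 0.04 by 24 h. Ddx52, an RNA helicase (Rok1 in yeast), had values of 9.27, 9.30 and 9.32 in untreated cells, 9.43, 9.24 and 9.48 at 6 h, 8.81, 8.79 and 8.95 at 12 h, and 8.74, 8.61 and 8.78 at 24 h. It was lower by 0.45 ± 0.07 at 12 h and by 0.58 ± 0.07 at 24 h (adjusted p = 5.37e-05). Utp18, a processome protein, had values of 9.42, 9.59 and 9.42 in untreated cells, 9.54, 9.67 and 9.52 at 6 h, 9.21, 9.44 and 9.35 at 12 h, and 8.90, 9.05 and 8.82 at 24 h. It was lower than in untreated cells at 24 h (-0.55 ± 0.08, adjusted p = 0.000217), while its 6 h and 12 h arrays overlapped with the untreated ones. Utp18 fell by 0.25 ± 0.08 between 6 and 12 h and by 0.41 ± 0.08 between 12 and 24 h. The first of these falls did not pass with further quantile normalization (adjusted p = 0.0807).

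Of the remaining 40S factors, the helicase gene Ddx10 rose at 6 h (0.24 ± 0.05) and was lower at 24 h (-0.16 ± 0.05). Bysl, which acts late in 40S maturation, rose by 0.13 ± 0.04 at 6 h, and its differences of -0.08 at 12 h and -0.07 at 24 h did not pass. Tsr1, a GTPase-like factor of the late 40S precursor, was lower at 12 h (-0.36 ± 0.05) and 24 h (-0.43 ± 0.05). Ltv1, which leaves the 40S precursor late, and Dcaf13 (Sof1 in yeast) passed in no comparison, with differences from untreated cells of -0.09 to 0.12.

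**Figure D4:**
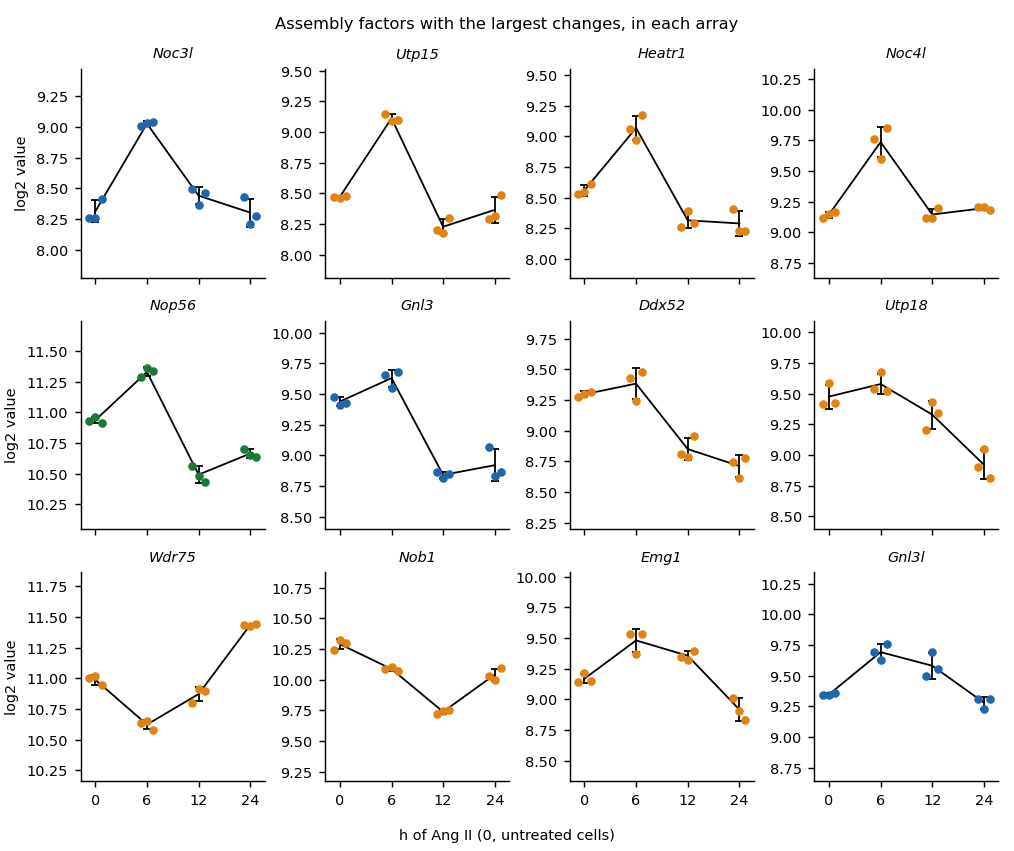
Log2 values of 12 genes with large changes (1 snoRNP protein and 11 assembly factors) in each array (points) with group means and SD (black), against hours of Ang II, where 0 is untreated cells and the time axis is not to scale. Each panel spans 1.7 log2 units. Noc3l, Utp15, Heatr1, Noc4l and Nop56 peak sharply at 6 h, Wdr75 is lowest at 6 h and highest at 24 h, and Emg1 and Gnl3l stay above the untreated arrays at 12 h.

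The 60S assembly factors moved in a single direction at 6 h. Of 19 measured genes 15 rose, and the differences of the other 4 were above 0 as well, with a median of 0.28. At 12 h 1 was higher and 4 lower, and at 24 h 8 were lower, the others not passing. The 5 of 19 that passed at 12 h are close to the 26.6% of all genes that did. Noc3l, which in yeast escorts early 60S precursors, had values of 8.26, 8.26 and 8.42 in untreated cells, 9.01, 9.03 and 9.04 at 6 h, 8.50, 8.36 and 8.46 at 12 h, and 8.43, 8.21 and 8.27 at 24 h. Its 6 h arrays stood above all others and the 12 and 24 h arrays overlapped with the untreated ones. The rise was 1.64-fold (0.71 ± 0.06, adjusted p = 3.44e-06), the largest of the set. Its yeast partner is the counterpart of Noc2l, which also rose at 6 h (0.34 ± 0.05) and differed by -0.07 at 12 h and 0.01 at 24 h.

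The nucleolar GTPases of the 60S branch took separate courses. Gnl3, the gene of nucleostemin, which is high in dividing and stem cells, had values of 9.48, 9.41 and 9.43 in untreated cells, 9.66, 9.55 and 9.68 at 6 h, 8.86, 8.81 and 8.85 at 12 h, and 9.07, 8.83 and 8.86 at 24 h. It was 1.51-fold lower at 12 h (-0.60 ± 0.06, adjusted p = 1.91e-05) and 1.43-fold lower at 24 h (-0.52 ± 0.06). Its rise at 6 h (0.19 ± 0.06, adjusted p = 0.0311) did not pass with the mean of its 2 probe sets (adjusted p = 0.218), nor without untreated replicate 2 or 3 or 6 h replicate 1 or 3 (0.17 to 0.18).

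Gnl3l, the paralogue of nucleostemin, had values of 9.34, 9.34 and 9.36 in untreated cells, 9.69, 9.63 and 9.76 at 6 h, 9.50, 9.70 and 9.55 at 12 h, and 9.31, 9.23 and 9.31 at 24 h. It was higher at 6 h (0.34 ± 0.06) and still at 12 h (0.23 ± 0.06, adjusted p = 0.00849), when Gnl3 was lower. At 24 h its difference of -0.07 did not pass. Gnl2, a GTPase that acts before 60S export in yeast, did not differ detectably at 6 h (0.00 ± 0.04) and was lower at 12 h (-0.32 ± 0.04) and 24 h (-0.21 ± 0.04).

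The PeBoW complex processes the 28S side of the precursor, and its measured members Bop1 and Wdr12 rose at 6 h by 0.31 ± 0.05 and 0.28 ± 0.07. Bop1 was lower by 0.16 ± 0.05 at 24 h. Nip7 and Ppan (Ssf1 in yeast), both 60S assembly factors, rose at 6 h by 0.25 ± 0.07 and 0.20 ± 0.06 and were lower at 12 h by 0.40 ± 0.07 and 0.38 ± 0.06. A second, dimmer probe set of Nip7 rose likewise at 6 h (0.26) but did not pass at 12 h (-0.18, adjusted p = 0.204). The helicase genes Ddx18 and Ddx56 rose by 0.30 ± 0.08 and 0.29 ± 0.05 at 6 h, and Ddx18 was lower by 0.25 ± 0.08 at 24 h. Ebna1bp2 (Ebp2 in yeast), Rrp15, Rrs1, Nle1 (Rsa4 in yeast) and Grwd1, the chaperone of ribosomal protein L3, rose at 6 h by 0.21 to 0.39, and of these Grwd1 was lower at 24 h (-0.24 ± 0.06). The rise of Ebna1bp2 (0.39 ± 0.06) was not seen in its second probe set (0.00, adjusted p = 0.984), which was instead lower at 24 h (-0.36, adjusted p = 0.0113). Mrto4, which resembles the ribosomal stalk protein and holds its place on the 60S precursor, was lower at 24 h (-0.51 ± 0.08), most of it after 12 h (-0.38 ± 0.08). Brix1 had 0.25 ± 0.09 at 6 h and Nop16 had 0.09 ± 0.05, and neither passed against untreated cells at any time. A second, dimmer probe set of Nop16 was lower at 24 h (-0.26, adjusted p = 0.00458).

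Genes of the pathway outside the 58 listed ones gave a like picture. Of 96 such genes measured, 66 were higher and 5 lower at 6 h (18.6% and 17.2% of all genes), with a median of 0.25. At 12 h 6 were higher and 25 lower (13.3% and 13.3% of all genes), with a median of -0.08. At 24 h 3 were higher and 32 lower (15.3% and 14.7% of all genes), with a median of -0.12. Between 6 and 12 h 75 of the 96 were lower at 12 h (13.9% of all genes) and 0 were higher by limma, and 2 were higher at an unadjusted p under 0.05. Naf1, an assembly factor of H/ACA particles (0.58 ± 0.09), the nucleolar gene Lyar (0.57 ± 0.06) and Nol10 (0.53 ± 0.06) rose most at 6 h, while Nop53, a late 60S factor, fell at each time (-0.55 ± 0.05, -0.61 ± 0.05 and -0.49 ± 0.05).

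Of the 3 measured subunits that all nuclear RNA polymerases share, Polr2f was lower at 6 h (-0.22 ± 0.04) and 12 h (-0.21 ± 0.04), with 0.03 at 24 h, and Polr2h was lower at 12 h (-0.45 ± 0.05) and 24 h (-0.44 ± 0.05), with 0.05 at 6 h. Polr2e passed at no time (-0.11, 0.00 and -0.04). Polr1h, a subunit of RNA polymerase I itself, was lower at 6 h (-0.20 ± 0.07, adjusted p = 0.0449), but did not pass the F test over the 4 groups. Polr1f and Polr1g, also of that polymerase, were higher at 6 h (0.37 ± 0.09 and 0.48 ± 0.06). Polr1f was lower at 12 h (-0.30 ± 0.09) and 24 h (-0.30 ± 0.09), whereas Polr1g did not pass at either time (-0.10 and 0.16). Nol8 was lower at 12 h (-0.44 ± 0.07) and Exosc5, of the RNA exosome, at 24 h (-0.57 ± 0.09).

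Factors that finish the 60S subunit in the cytoplasm differed among themselves, and Las1l and Exosc3, which are not of that group, are given after them. Nmd3, its export adaptor, and Rsl24d1 were lower at 12 h (-0.18 ± 0.05 and -0.23 ± 0.06), and the GTPase gene Lsg1 was higher at 6 h (0.30 ± 0.07) with -0.03 at 24 h. Zfp622 passed at no time (0.13, 0.04 and 0.16). Eif6, which keeps the new 60S from joining the 40S, was higher at 6 h (0.47 ± 0.05), 12 h (0.24 ± 0.05) and 24 h (0.15 ± 0.05). Efl1, the GTPase that releases it, was higher at 6 h (0.50 ± 0.07) and 12 h (0.23 ± 0.07). Sbds, the partner of that GTPase, was higher at 12 h (0.22 ± 0.05) and 24 h (0.22 ± 0.05). Las1l, which cuts the second internal spacer of the precursor, was higher at 6 h (0.27 ± 0.06) and 12 h (0.40 ± 0.06) but lower at 24 h (-0.30 ± 0.06). Exosc3, of the exosome, was higher at 6 h (0.42 ± 0.06), 12 h (0.19 ± 0.06) and 24 h (0.21 ± 0.06).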

How the data were processed

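RNA of untreated and Ang II-treated cells was measured on 12 Affymetrix Rat Gene 1.0 ST arrays. The submitters' processing notes name RMA and Partek for the deposited log2 values, with versions not given in the sources used here; RMA subtracts background and equalises the arrays' distributions, so a change of total RNA per cell is not seen. Of 29214 probe sets, 15310 have 1 symbol in the platform annotation, 323 have several and 13581 have none listed. For 527 genes with several probe sets the one with the highest mean over the 12 arrays was used, leaving 14506 genes.

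The 4 group means were fitted to all 12 arrays with limma 3.58.1 in R 4.3.3 (lmFit, eBayes, 8 residual degrees of freedom), after a test on simulated data. P-values are two-sided and Benjamini-Hochberg adjusted over all genes in each comparison, with a threshold of 0.05. The 58 genes, the lists and the rules were chosen with earlier results of these data known. Values in every array are given for the 5 largest passing rises and falls against untreated cells at each time, all measured RNA polymerase I genes and the 3 genes of highest mean. Between neighbouring times the 5 largest passing changes in each direction were named, and of the other pathway genes the 3 largest in each direction. Array values of Nop56, named for its change between times, and of Nolc1 are given outside that rule. So are the other pathway genes Taf1a, Taf1c, Polr1f, Polr1g, Polr2e, Nmd3, Rsl24d1, Lsg1 and Zfp622. All of these were chosen after their values were seen.

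Alternatives were a fit of only the 2 groups compared, a replicate block, a test of genes above the median level alone, averaging of the probe sets of 1 gene, omission of single arrays, further quantile normalization, median centring and a trended, robust variance. The titles do not say that a replicate number marks a shared culture or day, so the numbers were not taken as pairs. Same-numbered arrays deviated from their group means with correlations of -0.103 to 0.299. By these deviations 7 of 12 arrays correlated best with their own number, so a pairing is not excluded. Promoter sequences are RefSeq's (GRCr8) and were searched with Python 3.11.15.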

Additional observations from a re-analysis of the deposited data

Results flagged for a closer look

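For 18 of the 52 genes the difference from untreated cells passed in opposite directions at separate times, and the change between those times was itself tested in the same limma fit (adjusted p beside each value). Both differences of a gene share the untreated arrays, whereas the change between times does not use them. Such opposite calls were found for 6 and 12 h in 9 of the 52 genes (1.55% of all genes). For 12 and 24 h there was 1 (1.48% of all genes), and for 6 and 24 h there were 15 (3.92% of all genes). A gene can be in more than 1 of these counts, and each is given below for its largest change. Between 6 and 12 h the change was -0.91 ± 0.08 for Polr1e (adjusted p = 7.04e-06), -0.88 ± 0.06 for Utp15 (adjusted p = 5.46e-07) and -0.84 ± 0.04 for Nop56 (adjusted p = 1.72e-07). It was -0.79 ± 0.06 for Gnl3 (adjusted p = 3.35e-06), whose rise at 6 h did not pass when certain single arrays were left out, and -0.73 ± 0.06 for Polr1b (adjusted p = 6.7e-06). It was -0.58 for both Wdr43 (SE 0.05, adjusted p = 8.01e-06) and Ppan (SE 0.06, adjusted p = 1.42e-05). These 7 genes were above untreated cells at 6 h and below them at 12 h. So were Heatr1 and Nip7, which are given below because their change was larger between 6 and 24 h. The 12 h differences of Polr1e and Heatr1 did not pass without untreated replicate 3 or 12 h replicate 1. Wdr43, Ppan, Nip7, Rrp9, Ddx18, Bop1, Grwd1, Ddx10 and Nop14 were not followed singly through the alternatives, so their stability was not tested. The limma adjusted p of the 24 h difference from untreated cells was 0.0394 for Bop1, 0.0371 for Nop14 and 0.0309 for Ddx10.

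Between 6 and 24 h the change was -0.78 ± 0.06 for Heatr1 (adjusted p = 1.93e-06), -0.56 ± 0.06 for Emg1 (adjusted p = 1.11e-05) and -0.50 ± 0.05 for Polr1a (adjusted p = 1.72e-05). It was -0.70 ± 0.05 for Rrp9 (adjusted p = 4.61e-07), -0.66 ± 0.07 for Nip7 (adjusted p = 1.21e-05) and -0.54 ± 0.08 for Ddx18 (adjusted p = 0.000112). Bop1 changed by -0.47 ± 0.05 (adjusted p = 2.31e-05), Grwd1 by -0.44 ± 0.06 (adjusted p = 0.000126), Ddx10 by -0.40 ± 0.05 (adjusted p = 5.45e-05) and Nop14 by -0.34 ± 0.05 (adjusted p = 0.000243). Wdr75 alone among the 18 changed upward, by 0.81 ± 0.04 (adjusted p = 5.03e-08), being above untreated cells at 24 h and below them at 6 h. With 3 arrays per group, single arrays were not tested as outliers.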

How the results depend on the processing

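Counts and medians of the 52 genes kept their direction in all alternatives except for the small change between 12 and 24 h. There the median turned to 0.0086 with median centring. The 3 genes higher at 24 h became 8 with the filter, which kept 50 of the 52 genes. They became 9 with quantile normalization, 10 with median centring and 6 with the trended, robust variance. The 10 lower genes became 6 when only those 2 groups were fitted. Leaving out 1 array gave 2 to 5 higher genes, 6 to 13 lower genes and medians of -0.0796 to -0.0264; the extremes of 5 and -0.0796 came without 24 h replicate 1 and that of 6 without 24 h replicate 2. The median of 24 h against untreated cells was -0.1385 with median centring. Leaving out 1 array gave 1 to 2 genes higher at 12 h than in untreated cells, 24 to 30 higher at 6 h, 17 to 20 lower at 12 h and 23 to 33 lower at 24 h. The replicate block gave 30 higher genes at 6 h, 21 lower at 12 h and 28 lower at 24 h, and 7 of 12 arrays correlated best with their own number. The cause of these shifts was not tested. With 3 arrays per group, the number of arrays limits the precision.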

Other observations

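Outside the listed genes, 25 of 87 other pathway genes with a RefSeq promoter had the hexamer CACGTG in the window (28.7%), as did 8.06% of all tested genes with one. The dimmer probe set of Gnl3, with a mean of 4.80, passed in no comparison (-0.20 at 12 h, adjusted p = 0.289), unlike the brighter one used for its values.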
